A study of Drosophila melanogaster with 2 samples.

Results

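The nuclear genes for the proteins of the mitochondrial ribosome were examined in ChIP-seq (sequencing of immunoprecipitated chromatin) of the histone chaperone subunit Ssrp in Drosophila melanogaster embryos. The set was formed from the gene names: a protein-coding gene was taken when its symbol began with mRpL, for the large subunit, or mRpS, for the small subunit. This gave 73 genes of 13968 protein-coding genes in the annotation, 47 of the large and 26 of the small subunit. The rule uses no peak values. A gene was called bound when a peak summit lay within 500 bp of one of its transcription start sites (TSSs). The peaks were those of the optimal list described below.

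The embryos came from a transgenic line that stably expresses Ssrp fused at its C-terminal end to green fluorescent protein (GFP), and the fusion was precipitated with an anti-GFP antibody. Whole embryos of both sexes, pooled over ages from 0 to 16 h, were used, so the peaks average over all tissues and stages in that span. The labels describe the insertion as targeting Ssrp and do not say whether untagged Ssrp remained. There was 1 group with 2 biological replicates and no comparison between conditions. Control libraries were not used here.

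Ssrp and Spt16 together form FACT, which loosens and restores nucleosomes ahead of and behind transcribing polymerases. The mitochondrial ribosome translates the few proteins encoded in mitochondrial DNA, which are core subunits of the respiratory chain and ATP synthase, whereas all of its own proteins are encoded in the nucleus and imported. Its proteins fall into those with counterparts in bacterial ribosomes and those acquired in mitochondria, and its genes are active in nearly every tissue. In flies, mutation of the small-subunit genes tko and bonsai delays or reduces growth.

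Of the 73 genes, 25 were bound (34.2%, Wilson 95% interval 24.4% to 45.7%, which covers counting error only), and 48 were not. The share of all protein-coding genes bound under the same rule was 19.3%. The DNA under 5 of these summits is shown because it carries the features described below: 4 of the strongest sites with no exon in the window, and the site with the lowest GC content. Each is the summit with 50 bases to either side, read 5′ to 3′ on the strand of the named gene in the Release 6 (dm6) genome of NCBI RefSeq, and capitals mark runs of at least 6 A or 6 T. The windows are chr3R:15229474-15229574 on the plus strand, chr2L:13835409-13835509 on the minus strand, chr2L:4945431-4945531 on the minus strand, chr3L:13018067-13018167 on the minus strand and chr3R:8673938-8674038 on the plus strand.
mRpS10: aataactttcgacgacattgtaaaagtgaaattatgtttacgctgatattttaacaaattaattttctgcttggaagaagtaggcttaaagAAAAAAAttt
mRpS23: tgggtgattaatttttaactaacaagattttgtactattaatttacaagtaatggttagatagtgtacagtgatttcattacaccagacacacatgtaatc
mRpL24: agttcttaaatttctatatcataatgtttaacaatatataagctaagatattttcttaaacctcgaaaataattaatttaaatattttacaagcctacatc
mRpL20: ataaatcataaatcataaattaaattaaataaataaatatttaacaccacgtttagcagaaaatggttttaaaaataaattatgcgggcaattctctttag
mRpL19: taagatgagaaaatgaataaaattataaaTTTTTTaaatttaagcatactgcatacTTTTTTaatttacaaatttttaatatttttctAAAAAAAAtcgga
All 5 lay between genes, and GC made up 25.7% of the mRpS10 window, 28.7% of mRpS23, 19.8% of mRpL24, 20.8% of mRpL20 and 14.9% of mRpL19.

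The strongest site in the set was upstream of mRpS10, whose bacterial counterpart sits in the head of the small subunit. The gene (FBgn0038307) lies on 3R at 15229665 to 15230516, and its peak at 15229333 to 15229739. Its peak signal, a value of the authors' peak caller that can be compared only within a list, was 1964 in replicate 1, where it ranked 5, and 2419.6 in replicate 2, where it ranked 2. The optimal list was thresholded by irreproducible discovery rate (IDR), which scores the accord of replicate rankings. Its 5445 peaks were the strongest pooled peaks by signal, so a peak could enter it with a low rank in 1 replicate. In this IDR list the mRpS10 peak had a signal of 4373 and rank 3 of 5445. Both replicates thus placed this promoter among their strongest sites.

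Upstream of mRpL41 (FBgn0034001, 2R at 15217024 to 15217617), a large-subunit gene with a number beyond the bacterial series, the peak ranked 3 in both replicates, with signals of 2005 and 2349, and 4 in the IDR list, with 4342. mRpS23 followed at 1249.8 in replicate 1 and 1549 in replicate 2, and at 2805 and rank 30 in the IDR list. mRpL23 had 1099.8 and 1426 in the replicates, and 2521 and rank 37 in the IDR list. Its bacterial counterpart forms part of the rim of the tunnel through which the new polypeptide leaves the ribosome. These 4 genes were among the 50 protein-coding genes with a peak in the 50 strongest of the IDR list, and no further member was added among the 100 strongest, which held 90 protein-coding genes.

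The next members of the large subunit were mRpL24 and mRpL20. In bacteria the counterpart of mRpL24 also lies at the tunnel exit, and that of mRpL20 is needed early in assembly of the large subunit. mRpL24 had a signal of 729 in replicate 1, 842 in replicate 2 and 1575 in the IDR list, at rank 159. mRpL20 had 565, 700.1 and 1256, at rank 243. mRpL37 followed at 578 and rank 1055, mRpL34 at 456 and rank 1493, and mRpL11, whose counterpart helps bind the GTPase factors, at 312 and rank 2503. These 3 were ranked higher by replicate 2 (816, 1258 and 2514) than by replicate 1 (1418, 1929 and 2709).

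The remaining 7 bound genes of the large subunit had IDR signals from 162 to 259. mRpL4, whose counterpart lines a narrow point of the exit tunnel, had 259 at rank 3150. mRpL19 had 216, mRpL47 had 186, mRpL44 had 182, mRpL35 had 174, mRpL17 had 169 and mRpL21 had 162. The protein of mRpL44 has a ribonuclease III-like fold, and the bacterial counterpart of mRpL17 is a further neighbour of the tunnel exit. The lowest of them, mRpL21, ranked 5267 in the IDR list.

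In the small subunit, mRpS2 came after mRpS10 and mRpS23, with 426 in replicate 1, 538 in replicate 2 and 961 in the IDR list, at rank 445. mRpS6, whose counterpart sits on the platform of the subunit, had 553 in the IDR list, and mRpS7, of the head, had 486. mRpS26 had 452, mRpS22 had 332, mRpS31 had 317, mRpS24 had 306 and mRpS18B had 305. mRpS29, whose human counterpart is the GTP-binding protein DAP3, had the lowest value of the subunit, 239.6. mRpS26 and mRpS22 each carried a second, weaker IDR peak, with summits at −35 and −69 bp from the TSS beside −236 and −269 bp for the stronger peak, and with signals of 228 and 287. Every other bound member had 1 IDR peak.

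By subunit, 14 of 47 large-subunit genes (29.8%) and 11 of 26 small-subunit genes (42.3%) were bound. The median IDR signal of the bound genes was 285 in the large and 452 in the small subunit, and the ranges overlapped, from 162 to 4342 and from 239.6 to 4373. By the number in the symbol, 15 of 42 genes numbered within the bacterial series (up to 36 for the large and up to 21 for the small subunit) were bound, or 35.7%, and 10 of 31 genes numbered beyond it, or 32.3%. The highest share was in small-subunit genes numbered beyond the series, 6 of 12 (50%), a class of few genes. The lowest was in large-subunit genes numbered beyond it, 4 of 19 (21.1%), near the 19.3% of all protein-coding genes. The number is only a guide, since the human counterparts of mRpS24 and mRpL47 belong to families shared with bacteria. No test was made between these groups.

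Over the 25 bound members the median IDR signal was 332, with quartiles at 239.6 and 961, beside a median of 355 and quartiles at 236 and 653 over all 2694 bound protein-coding genes. 17 members lay above the median of the IDR list, 292, and 8 below it. Among all bound protein-coding genes 61.0% lay above it. In the stronger 2722 peaks of the list, 17 of 73 members (23.3%) had a summit within 500 bp, and the share of all protein-coding genes was 11.8%. A middle value close to that of other genes thus went with a few sites near the top of the list.

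Each replicate list was also limited to its own 5445 strongest peaks. Replicate 1 then gave 26 members (35.6%, against 19.5% of protein-coding genes) and replicate 2 gave 23 (31.5%, against 19.1%), a mean of 24.5 ± 2.12 genes (SD, n = 2) or 33.6% ± 2.91. All 25 members bound in the IDR list had a peak in both replicates, and 19 were among the strongest of both. mRpL19, mRpL47, mRpL44, mRpL17 and mRpL21 missed the strongest peaks of replicate 2, at ranks 6784, 5617, 8223, 5584 and 6377, and mRpL35 missed those of replicate 1 at rank 9273. All 6 are large-subunit genes with an IDR rank of 3863 or beyond. For mRpL35 the signal was 61.9 in replicate 1 and 109.8 in replicate 2, and for mRpL44 it was 118 and 53.7, so these 2 sites leaned on different replicates. Summits of the same member lay a median of 16 bp apart between replicates, within 50 bp for 21 of 25, and at most 164 bp apart.

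**Figure D1:**
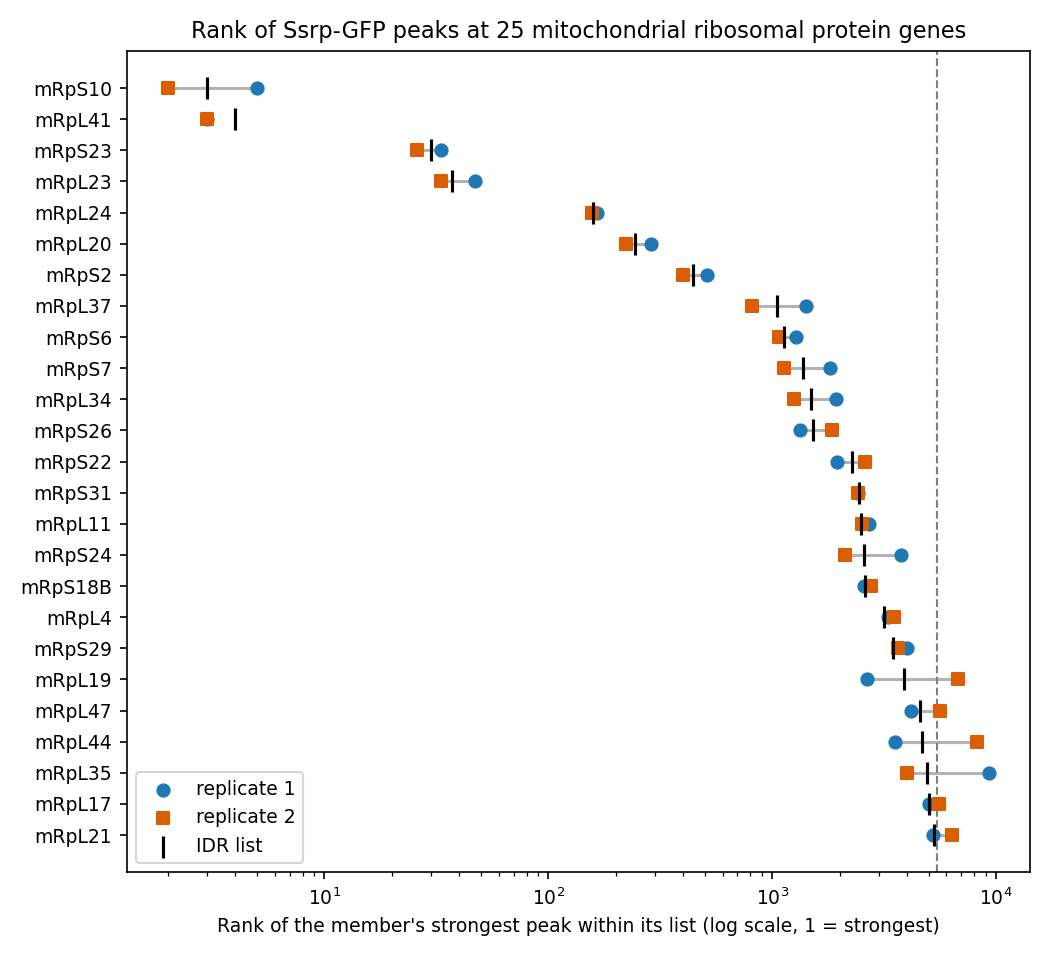
Rank of the strongest peak of each of the 25 bound members (rows) in replicate 1 (circles), replicate 2 (squares) and the IDR list (bars), on a log axis where 1 is the strongest, with the dashed line at the 5445 peaks the IDR list holds. The ranks run from 3 for mRpS10 to 5267 for mRpL21 in the IDR list, and the 6 genes with a replicate to the right of the line are all near the bottom.

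On its log axis, the plot of ranks by replicate shows mRpS10 and mRpL41 apart from the rest, with mRpS23 and mRpL23 next. Replicate ranks differed in the middle of the list as well, with mRpS24 at 3764 in replicate 1 and 2107 in replicate 2. Across these 25 genes the ranks of the replicates had a Spearman rho of 0.916, given as a description. The genes were taken from a list of the strongest peaks pooled over both replicates, and both replicate lists share 1 alignment.

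Of the 25 strongest summits, 22 lay between genes, 3 in untranslated exons and 0 in coding sequence. Measured from the nearest TSS of the member, 24 were upstream and 1, at mRpL23, was 56 bp downstream. The median offset was −181 bp, with quartiles at −236 and −130 bp and a range from −387 to 56 bp. Among all bound protein-coding genes the median was −162 bp and 9.99% of the summits were downstream. Extending the call to the whole gene body added no member, so it stayed at 25 of 73, while the share of protein-coding genes grew to 24.9%. The 48 members that could have been added ran from 468 to 13391 bp, with 852.5 bp as the middle value. For a typical one the 500 bp window thus already took in most of the gene. Gene lengths were not compared with those of protein-coding genes in general, so these outcomes are not like for like. Within 250 bp of a TSS there were 21 members (28.8%, against 14.6%), and within 1000 bp there were 26 (35.6%, against 22.6%), the added gene being mRpS25.

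Most of these genes stood back to back with another gene. A promoter was called shared when a TSS of another gene on the opposite strand lay within 500 bp of the TSS of the member. Of the 73 genes 53 had such a promoter (72.6%), beside 29.3% of all protein-coding genes, and in no case was the neighbour another gene of the set. Among the bound members it was 21 of 25 (84%), beside 53.2% of bound protein-coding genes. With the opposite-strand TSS sought within 1000 bp it was 24 of 25. No share of protein-coding genes was counted at that distance. The same peak also lay within 500 bp of the TSS of the neighbour in all 21 cases. For a summit upstream of the member this follows from the distance rules and is no separate result. For these 21 sites a ChIP-seq peak alone cannot tell which of the 2 genes it belongs to.

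Split by promoter type, 21 of 53 members with a shared promoter were bound (39.6%), against 35.0% of protein-coding genes with a shared promoter. Of the members without one, 4 of 20 were bound (20%), against 12.8%. If each promoter type had the share of protein-coding genes, 21.1 of the 73 members, or 28.9%, would be bound. The measured share was 34.2%, with a counting interval of 24.4% to 45.7%. Whether promoter type accounts for the excess over 19.3% was not tested. When each summit was given only to the nearest TSS of any gene, 12 members were left (16.4%), against 13.8% of protein-coding genes. The share of protein-coding genes under that assignment was not split by promoter type.

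**Figure D2:**
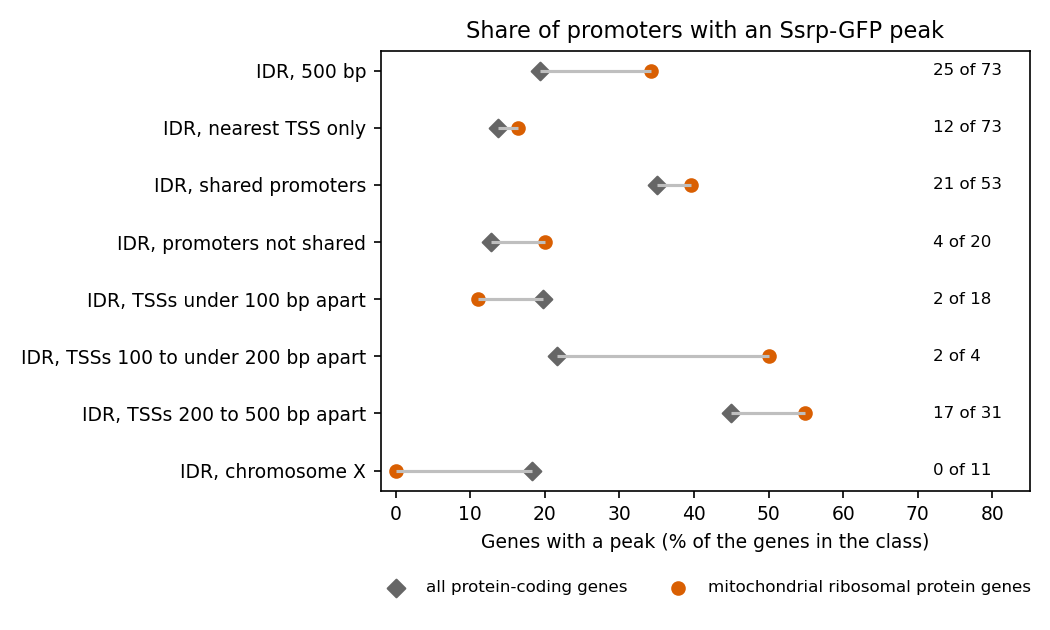
Percent of genes with an IDR summit within 500 bp of a TSS among mitochondrial ribosomal protein genes (circles) and all protein-coding genes (diamonds), in all genes, under nearest-TSS assignment and in classes of promoter and chromosome, with the members bound of all in the class at the right. The distance is widest for TSSs 100 to under 200 bp apart, where there are only 4 members, and members fall below the diamond for TSSs under 100 bp apart and on chromosome X.

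In the plot of shares the 2 kinds of genes lie closest under nearest-TSS assignment, at 16.4% and 13.8%. Among the 21 shared promoters, the IDR summit lay between the 2 start sites in 18, and closer to the neighbour than to the member in 15. For all bound protein-coding genes with a shared promoter, 77.8% of summits lay between and 47.8% were closer to the neighbour. The neighbour of mRpS10 was Art3, an arginine methyltransferase gene, with 257 bp between the start sites and the summit 141 bp from mRpS10 and 116 bp from Art3. That of mRpS23 was CenG1A, a GTPase-activating protein gene for Arf, 492 bp away, with the summit 387 bp from mRpS23 and 105 bp from CenG1A. mRpL24 was paired with betaggt-I, the beta subunit of a geranylgeranyl transferase, mRpL20 with Icmt, a carboxyl methyltransferase of prenylated proteins, and mRpS2 with Mon1, which takes part in the activation of Rab7.

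In all of these the neighbour was nearer, with summits 98, 149 and 75 bp from betaggt-I, Icmt and Mon1 and 120, 250 and 147 bp from mRpL24, mRpL20 and mRpS2. mRpS24 faced Apc2 across 421 bp, mRpL44 faced Snr1, of the Brahma remodelling complex, across 290 bp, and mRpL17 faced Tudor-SN across 399 bp. mRpL21 faced rept, a gene for an AAA+ ATPase of chromatin complexes, across 279 bp, and mRpL34 faced Dg, the dystroglycan gene, across 384 bp. mRpS26 faced CG13698 across 430 bp and mRpS22 faced CG5003 across 392 bp. In these 7 the strongest summit was also nearer the neighbour, and it came closest to rept, at 49 bp. The weaker second summits of mRpS26 and mRpS22, at −35 and −69 bp, were nearer the member. At mRpL11 and mRpL35 the neighbours were HtrA2, a mitochondrial protease gene, and Mitofilin, a gene of the complex that shapes the inner membrane. There the summits lay 55 and 15 bp inside those genes, counted from the closest of their several TSSs, and in their untranslated exons.

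The summit was nearer to the member at mRpL23, mRpS6, mRpS7, mRpS18B, mRpS31 and mRpL47. At mRpS7 the difference was small, 195 bp from mRpS7 and 205 bp from Cdk1, the mitotic kinase gene, and at mRpL47 it was 46 bp against 53 bp from CG8176 and Kdm3, which share a start position. At mRpS31 it was 67 bp against 390 bp from hzg, and at mRpS6 160 bp against 288 bp from Cip4. Only mRpL4 and mRpL19 had no TSS of any other gene within 500 bp of the summit. mRpL41 had a noncoding gene, lncRNA:CR44463, with a TSS 436 bp away on its own strand, and mRpS29 had the DNA repair gene rad50 at 319 bp. mRpL41 was thus the strongest site with no protein-coding neighbour in reach.

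**Figure D3:**
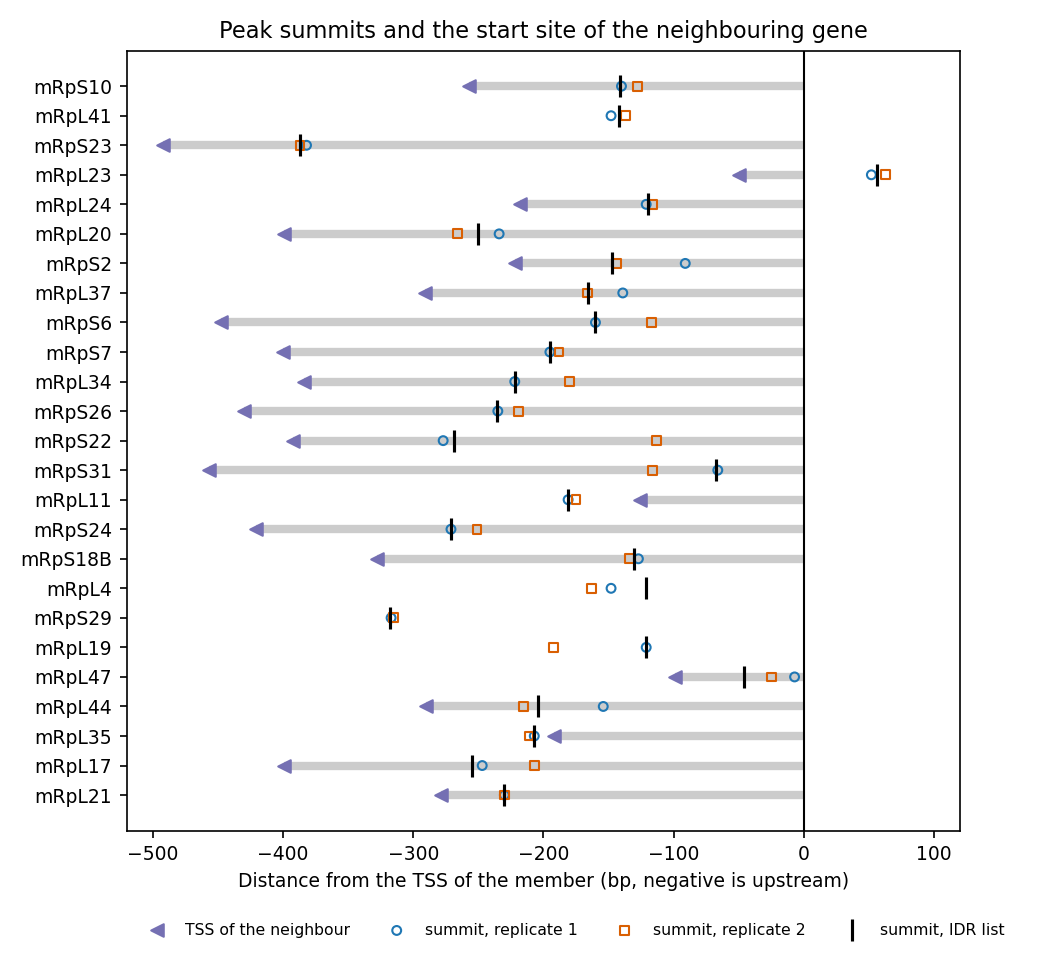
Position of the summit in replicate 1 (circles), replicate 2 (squares) and the IDR list (bars) relative to the TSS of each bound member (0, in bp, negative upstream), with triangles for the TSS of the diverging neighbour and grey lines for the DNA between. 24 of the 25 IDR summits are left of 0, and 18 of the 21 with a neighbour fall on the grey line.

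The map of summits shows the peak off centre towards the triangle in most rows. The distance between the diverging start sites had a median of 328 bp in the 21 bound members with a shared promoter, with a range from 50 to 492 bp, and of 116.5 bp in the 32 that were not bound, with a range from 20 to 499 bp. For protein-coding genes the medians were 278 and 219 bp. Bins of this distance were chosen after these values were seen. With start sites 200 to 500 bp apart, 17 of 31 members were bound (54.8%, against 45.0% of protein-coding genes), with 100 to under 200 bp 2 of 4 (50%, against 21.6%), and with under 100 bp 2 of 18 (11.1%, against 19.8%). The 2 bound members of the closest class were mRpL23 and mRpL47.

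The DNA at the summits was poor in GC, as in the sequences printed above. Over the 25 strongest summits of the members, the summit with 50 bp to either side held 28.0% GC ± 6.74 (SD), with a range from 14.9% at mRpL19 to 48.5% at mRpL21. The mean of windows 600 bp to either side was 49.9% ± 5.99, and the summit was lower than its own flanks in 25 of 25. All 2214 IDR summits at promoters had 30.05% ± 8.61. A run of at least 8 A or 8 T was present at 3 of the 25 (12%), beside 9.53% of all promoter summits and at 0 of the 25 windows 600 bp to the right on the plus strand. The lowest GC of any such window within 500 bp of the TSS was 19.8% ± 4.98 (SD) in the 25 bound and 22.8% ± 5.53 in the 48 other members, and 20.1% ± 5.02 and 23.0% ± 6.07 in bound and other protein-coding genes. The bound and the other members therefore overlapped widely in this measure, and each was near the value for genes in general.

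**Figure D4:**
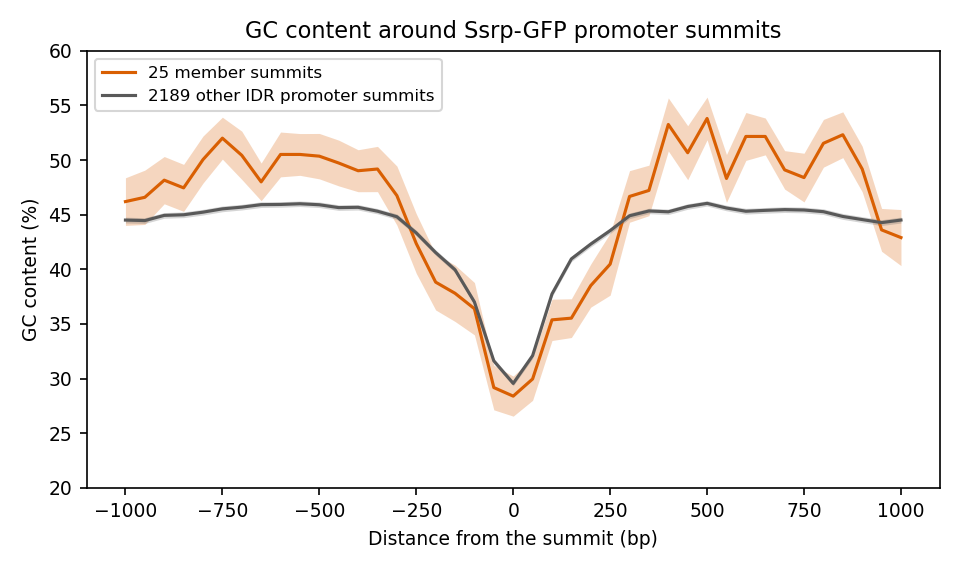
Mean GC content (percent) of windows reaching 25 bp to either side of their centre, by distance from the summit (bp), for the strongest summit of the 25 bound members and for 2189 other IDR summits at promoters, with bands of 1 standard error. The lines lie close together at the summit, at 28.4% and 29.6%, and the members lie higher at 400 bp, at 53.3% and 45.3%.

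The profile of GC content shows a trough in both sets. The mean of the members was below that of the other summits within 250 bp of the summit and above it from 300 to 900 bp on either side, and the difference was not tested.

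The promoters were then searched for core elements, which are not part of the peak data. Bases 1 to 60 upstream of the TSS are shown for 6 members, chosen to show the 2 elements that were most frequent relative to other genes, with capitals for the DNA replication-related element (DRE), TATCGATA, or the E-box variant CAGCTG. They are from the same genome, read 5′ to 3′ on the strand of the gene, and hold no annotated exon. The windows are chr2L:13835073-13835132 on the minus strand, chr3L:13017868-13017927 on the minus strand and chr3R:8674049-8674108 on the plus strand for the DRE, chr2L:4850420-4850479 and chr3L:19255062-19255121 on the minus strand for the E-box, and chr3R:31252812-31252871 on the plus strand, a member that was not bound, for both.
mRpS23: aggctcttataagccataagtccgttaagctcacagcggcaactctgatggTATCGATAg
mRpL20: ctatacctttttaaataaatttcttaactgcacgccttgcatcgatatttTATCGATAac
mRpL19: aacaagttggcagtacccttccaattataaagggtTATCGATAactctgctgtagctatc
mRpS2: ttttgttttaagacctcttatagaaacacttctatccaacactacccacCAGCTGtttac
mRpL21: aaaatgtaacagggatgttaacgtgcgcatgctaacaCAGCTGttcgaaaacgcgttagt
mRpL32: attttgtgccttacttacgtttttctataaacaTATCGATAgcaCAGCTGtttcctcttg
In the 5 bound genes the summit lay farther upstream than the bases shown.

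The E-box variant, searched on both strands within 100 bp of the TSS, was present in 38 of 73 members (52.1%), beside 13.8% of all protein-coding genes. It was as frequent in bound members, 13 of 25 (52%), as in the others, 25 of 48 (52.1%). The DRE, the site of the factor DREF, which is known for genes of growth and replication, was present in 15 of 73 (20.5%), beside 7.67%, in 7 of 25 bound (28%) and 8 of 48 other members (16.7%). The core of the Ohler 1 motif, GGTCACAC, was present in 8 of 73 (11.0%), beside 6.56%, and all 8 were among the 48 members that were not bound (16.7%). Among all protein-coding genes the core was present in 8.72% of bound and 6.04% of other genes. TATAAA was found in 11 of 25 bound (44%) and 9 of 48 other members (18.8%), and in 24.2% of bound and 30.2% of other protein-coding genes, 29.1% in all. GAGAG was found in 11 of 73 (15.1%), beside 22.9%, and AAAAAAAA in 3 of 73 (4.11%), beside 10.04%. None of the 6 words contains another, and a match is only a match of letters.

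**Figure D5:**
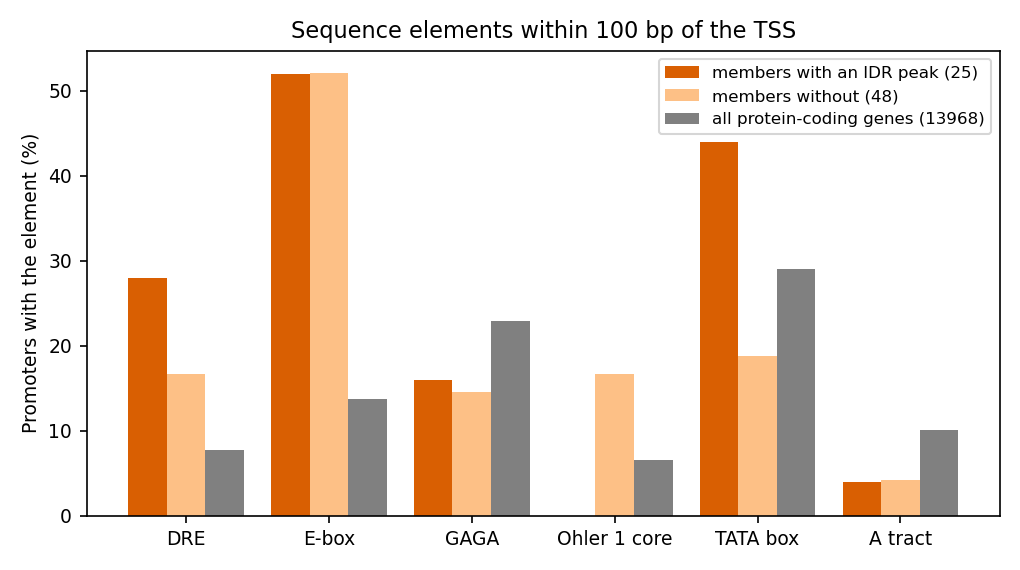
Percent of promoters with each sequence element within 100 bp of the TSS, for the 25 bound members, the 48 members that were not bound and all 13968 protein-coding genes. The E-box bars of both member groups stand near 52%, beside 13.8% for protein-coding genes, and no bound member has the Ohler 1 core.

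The bar plot shows the E-box level with and without a peak, whereas the bars of the DRE and TATAAA are higher and that of the Ohler 1 core lower in the bound members. For TATAAA and the Ohler 1 core the bound and other protein-coding genes differed in the opposite direction. The member counts behind these 3 elements were 0 to 11 genes, and the differences were not tested.

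The 48 members without an IDR peak at the promoter were not all without a peak. In the gene or within 500 bp of a TSS, 33 had a peak in the pooled list of 30000, 32 in replicate 1 and 27 in replicate 2. 23 had one in both replicates, 13 in 1 replicate, 1 in the pooled list alone (mRpS30) and 11 in none of the 4 lists. No share of the protein-coding genes that were not bound was counted under this rule, so these counts have no background beside them. Counting any summit within 500 bp of a TSS, the pooled list gave 55 of 73 members (75.3%, against 43.4% of protein-coding genes), replicate 1 gave 53 (72.6%, against 44.1%) and replicate 2 gave 49 (67.1%, against 42.8%). With the 10890 strongest pooled peaks, 42 members had a summit (57.5%, against 29.1%).

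The strongest of the members that were not bound was mRpS21, with a pooled signal of 154 and rank 5557, just past the end of the IDR list. Its replicates differed, at 51.04 and rank 13216 in replicate 1 and 104 and rank 4241 in replicate 2. mRpL16 had a pooled rank of 5801, mRpL10 of 5858, mRpL27 of 5893, mRpL54 of 6012 and mRpS17 of 6610. mRpL32 followed at 6621, mRpL13 at 6811, mRpL1 at 7235 and mRpS5 at 7349. mRpL10 belongs to the stalk of the large subunit, which recruits translation factors. mRpL10 and mRpL13 reached the strongest 5445 peaks of replicate 1, at ranks 5108 and 5320, and mRpL27, mRpS21 and mRpL16 those of replicate 2, at ranks 4221, 4241 and 5285, and none reached both. The peaks of the members that were not bound had median offsets of −38.5 bp in replicate 1, −72 bp in replicate 2 and −49 bp in the pooled list. These were peaks in the gene or within 500 bp of a TSS, some far inside long genes, as at 7013 bp in mRpS9 in replicate 1. For the bound members the median was −181 bp in the IDR list, also with the gene body included. The strongest peaks of the bound members were the same peaks in the pooled list, so −181 bp stands beside −49 bp there. The replicate values come from other lists and are not like for like with it. The difference was not tested.

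At the edges of the rule, mRpS23 was the bound member with the most distant summit, at 387 bp, and mRpS25 was the closest outside, with an IDR summit of signal 193 and rank 4406 at 516 bp. By signal, the last member inside was mRpL21 at 162 and the first outside mRpS21 at 154.

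None of the 11 members on chromosome X was bound (0 of 11, Wilson 95% upper limit 25.9%). Of all protein-coding genes on that chromosome 18.3% were, a share below that limit. mRpS25, whose nearest IDR summit, of signal 193 and rank 4406, lay 516 bp from its TSS, is on the X. It was called with the 1000 bp window, so the count of 0 depends on the window. 7 of the 11 had a shared promoter. Off the X, 25 of 62 members were bound (40.3%), beside 19.5% of protein-coding genes. On 2L it was 6 of 12, on 2R 3 of 12, on 3L 7 of 17 and on 3R 9 of 21. Among the 10890 strongest pooled peaks 1 of 11 had a summit within 500 bp (9.09%), mRpL16, beside 41 of 62 members off the X (66.1%). The share of all protein-coding genes under that rule was 29.1%, and it was not counted for the X alone. In any of the 4 lists, 6 of 11 had a peak in the gene or within 500 bp. This is a wider rule for which no share of all genes was counted. The class was singled out after its count was seen, and no test was made.

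Other nuclear genes of mitochondrial translation, transcription, RNA processing and DNA maintenance were set beside them. Of 42 symbols listed 38 were found, and 8 of the 38 were bound (21.1%), against the 19.3% of all protein-coding genes. PNPase, the mitochondrial polynucleotide phosphorylase gene, stood far above the others, with 1503 in replicate 1, 1868 in replicate 2 and 3363 at rank 15 in the IDR list, with the summit 80 bp downstream of the nearest TSS in that list, 81 bp downstream in replicate 1 and 85 bp upstream, at −85 bp, in replicate 2. Suv3, the helicase that works with that enzyme in the human degradosome, had 341, and mtSSB, which binds single-stranded mitochondrial DNA, had 287. ProRS-m had 277, CysRS-m 274, mTerf5 229, mTerf3 168 and the elongation factor gene mEFTu1 159. The 2 synthetases were the only bound ones of 15 listed mitochondrial aminoacyl-tRNA synthetase genes. tko and bonsai, small-subunit genes with symbols of another kind, were not bound.

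Genes for cytosolic ribosomal proteins, taken by symbols beginning with RpL or RpS, had 51 of 85 bound (60%), against 19.3% of all protein-coding genes. Their median IDR signal was 268 and their highest 1028, beside 332 and 4373 for the mitochondrial ones, and their median offset was −53 bp, beside −181 bp. A shared promoter was found for 35 of 85, beside 29.3% of all protein-coding genes. 27 of the 51 bound ones had one, beside 53.2% of bound protein-coding genes. On the X, 8 of 13 were bound, beside 18.3% of protein-coding genes there. These values are given side by side, without a test of the difference between the lists.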

How the data were processed

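Ssrp-GFP ChIP-seq peaks of 2 biological replicates were used. The authors deposited 4 peak lists on dm6, 1 for each replicate, 1 pooled and 1 optimal IDR list, and per the text deposited with the samples each replicate list was made from its own alignment and from 1 alignment common to all lists. No source used here names the aligner, the peak caller or the IDR threshold. Peak signal, as deposited, was used only within its list. The deposited −log10 q-value was read but supports no result. The summit is the deposited offset from the peak start, and 4 summits of the IDR list outside their own peak were moved to its nearest base. No read numbers are given, so depth is unknown and the Wilson intervals cover gene counts only.

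Genes and TSSs came from Ensembl release 115 on Release 6, on 7 chromosomes with 18277 genes, and no peak lay beyond a chromosome end. The 5445 IDR peaks were the strongest pooled peaks by signal. Calls, GC windows of 50 bp to either side and searches within 100 bp of a TSS were made in Python 3.11.15 with pandas 2.3.3 and numpy 2.4.6, and the interval with statsmodels 0.14.6. Plots used matplotlib 3.10.9. For members that were not bound, the most 5′ TSS set the promoter. The calls were tested on simulated data. With 1 group no test between conditions was possible. All bound members were named, with up to 10 others by pooled signal, those at the edges of the rule and the bound genes of the other mitochondrial list. The neighbour of 1 bound member is not reported here. Members and lists were chosen with earlier results of these data known. Alternatives changed the window, gene region, assignment, peak number, replicate, GC window and neighbour definition.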

Additional observations from a re-analysis of the deposited data

How the results depend on the processing

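Of 45 alternatives, 25 stayed within the limits set (1.5 times for a count, the spread between replicates for a value). 20 moved beyond them and 0 reversed the sign of a value. These limits did not weigh a count against the share of all protein-coding genes. Bound members numbered 12 with each summit given to its nearest TSS only and 42 with 10890 pooled peaks, and bound members with a shared promoter 8 and 33. With 1 replicate left out they numbered 23 to 26 and 20. The shared-promoter counts have no share of bound protein-coding genes beside them, since none was counted under these settings. By nearest TSS, mRpS26 and mRpS22 were called through their weaker second peaks. The other mitochondrial genes bound numbered 2 of 38 in the stronger 2722 peaks, against 11.8% of protein-coding genes. Without replicate 1 they numbered 6, against 19.1%, and with the gene body 8, against 24.9%. Their share was lower than that of protein-coding genes in these settings and higher in the remaining ones. With 10890 peaks they numbered 14, against 29.1%. The median offset was −147 bp with a 250 bp window, −188 bp with 1000 bp, −121 bp by nearest TSS, −166 bp in the stronger peaks, −135.5 bp with 10890 peaks, and −151 to −144 bp with 1 replicate left out. The median signal was 452 with a 250 bp window and 296 by nearest TSS. GC at summits was 30.9% with 100 bp to either side, 26.3% in the stronger peaks, 31.4% with 10890 peaks, and 26.3% to 27.2% with 1 replicate left out. The cause of these moves was not tested. Adding tko and bonsai left 25 bound. No paired analysis was possible because the study has 1 group. Depth is unknown, and 2 replicates limit every spread given.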

Other observations

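The positions of the elements relative to the TSS were set beside those at all protein-coding genes. The 39 E-box matches in members had a median position of 10 bp, downstream of the TSS, and 38.5% of them were upstream, beside a median of −6 bp and 54.6% for the 2097 matches at all protein-coding genes. The 15 DRE matches in members had a median of −5 bp, beside −29 bp. The 8 matches of the Ohler 1 core had a median of 27 bp, beside 1 bp, and the 11 of GAGAG 32 bp, beside −37 bp. The 26 matches of TATAAA had a median of −18.5 bp, beside −25 bp, and the 3 of AAAAAAAA −43 bp, beside 22 bp. These are descriptions without a test, and genes that share a promoter region with a neighbour can owe a match to either gene.

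The median gene length was 981 bp (390 to 1772 bp) in the 25 bound members and 852.5 bp (468 to 13391 bp) in the 48 others. The nearest IDR summit of the others lay a median of 7749.5 bp from a TSS.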
